A study of Homo sapiens with 4 samples.

Results

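The matrix metalloproteinase (MMP) gene cluster on the long arm of chromosome 11 holds 9 genes, MMP7, MMP20, MMP27, MMP8, MMP10, MMP1, MMP3, MMP12 and MMP13, and the binding of Fra-1 and DDX5 across it is described here. Chromatin immunoprecipitation with sequencing (ChIP-seq) had been done in untreated BT549 cells, an established line of human breast cancer negative for oestrogen receptor alpha, grown in RPMI medium with serum. The 4 libraries were a Fra-1 ChIP, a DDX5 ChIP, a ChIP with normal rabbit IgG and input DNA, with 1 library each and no replicates, so no difference could be tested and intervals cover counting error only. The authors listed the peaks of each antibody over input and over IgG, and a peak was taken as a member where it overlapped the stretch of chromosome 11 between 102.38 and 102.84 Mb (hg19) by at least 1 bp. The window of 460.0 kb held 7 of the 30571 Fra-1 peaks over input, 6 of the 16133 Fra-1 peaks over IgG, 0 of the 10836 DDX5 peaks over input and 0 of the 61 DDX5 peaks over IgG, in all 13 of 57601 listed peaks. No hg19 annotation or genome was used here, so the peaks are given by position and are not assigned to a gene, and absolute read depths are unknown.

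MMPs are zinc-dependent endopeptidases, made as inactive proenzymes and, for the most part, secreted, that cleave collagens and other components of the extracellular matrix. Transcription of several genes of the cluster is known to be raised by growth factors, cytokines and phorbol esters through AP-1. This dimer of Jun and Fos family proteins usually binds TGAGTCA, a case of the wider pattern TGANTCA. Fra-1, encoded by FOSL1, is the Fos family member that is often abundant in basal-like breast cancer cells, and DDX5, an RNA helicase of the DEAD-box family, can also serve as a coactivator of transcription factors.

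The 9 genes fall into known enzyme groups. MMP1, MMP8 and MMP13 are the collagenases, which cut fibrillar collagen; MMP8 is the form stored by neutrophils. MMP3 and MMP10 are the stromelysins, with broad matrix substrates and a role in activating other proenzymes. MMP7 is matrilysin, a short form without the hemopexin domain, MMP12 is macrophage metalloelastase, MMP20 is enamelysin of developing tooth enamel, and MMP27 is the least studied of them. In the RefSeq gene table (GRCh38.p14) the 9 genes stand in the order in which they are listed above, with 7 other entries between them. Of these 7, none is protein-coding, 5 are pseudogenes, WTAPP1 among them, and 2 are long noncoding RNAs, of which MMP20-AS1 is named for its antisense partner.

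The stretches before the gene starts are shown first, since the best known AP-1 sites of this gene family lie there. RefSeq promoter sequences were matched for 5 of the 9 genes, MMP7, MMP20, MMP27, MMP8 and MMP10, and the 250 bases before each gene start were searched on both strands for 4 motifs. The AP-1 motif, TGANTCA, reads the same on both strands. With any base allowed at N, it was found in 3 of the 5, MMP7, MMP20 and MMP10, and in 6.57% of all 35097 promoters of the table. These 3 are printed 5′ to 3′ on the strand of the gene, which is the minus strand for each, with the AP-1 motif and the TATA box (TATAAA) in capitals. They lie at chr11:102530748-102530997 (MMP7), chr11:102625333-102625582 (MMP20) and chr11:102780629-102780878 (MMP10) in GRCh38.p14, a build whose positions cannot be set beside the hg19 positions of the peaks.
MMP7: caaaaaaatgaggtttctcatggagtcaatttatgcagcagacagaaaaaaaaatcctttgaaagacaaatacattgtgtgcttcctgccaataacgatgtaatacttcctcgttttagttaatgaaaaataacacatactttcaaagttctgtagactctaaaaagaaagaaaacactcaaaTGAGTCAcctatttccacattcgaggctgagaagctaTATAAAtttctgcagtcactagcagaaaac
MMP20: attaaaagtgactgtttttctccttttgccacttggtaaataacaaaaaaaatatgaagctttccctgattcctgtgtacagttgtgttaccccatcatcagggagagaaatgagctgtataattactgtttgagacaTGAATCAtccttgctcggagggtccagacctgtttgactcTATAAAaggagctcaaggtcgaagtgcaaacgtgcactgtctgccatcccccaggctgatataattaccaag
MMP10: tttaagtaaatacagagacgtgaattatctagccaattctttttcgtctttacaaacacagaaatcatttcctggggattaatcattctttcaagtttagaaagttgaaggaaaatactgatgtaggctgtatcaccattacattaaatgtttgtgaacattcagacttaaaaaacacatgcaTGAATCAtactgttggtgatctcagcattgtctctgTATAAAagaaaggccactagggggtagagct
MMP7 and MMP10 have the same layout. The AP-1 motif spans -67 to -61 from the gene start in both, and the TATA box spans -30 to -25 in MMP7 and -31 to -26 in MMP10. In MMP20 the AP-1 motif spans -112 to -106 and the TATAAA match -72 to -67. The letters in the middle of the motif differ. Only MMP7 carries TGAGTCA, the usual AP-1 sequence. MMP20 and MMP10 carry TGAATCA, which departs from it, so their matches rest on the wider pattern.

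MMP8 had a TATAAA match at -110 to -105 and no AP-1 motif, and MMP27 had none of the 4 motifs. TATAAA was present in 4 of the 5 genes and in 10.7% of all promoters. It began at -30 in MMP7 and -31 in MMP10, but farther from the start in MMP20 (-72) and MMP8 (-110). The ETS motif, AGGAAG, occurred in MMP7 alone of the 5, at -169 to -164 and at -145 to -140, and in 28.7% of all promoters, and no match of 1 motif overlapped that of another in these genes. The TCF motif, CTTTGAT, occurred in 0 of the 5 and in 2.26% of all. Of 15 related genes outside the cluster, other MMPs and the tissue inhibitors of metalloproteinases (TIMPs), 7 had a promoter sequence. None of the 7 carried the AP-1 motif or the TATA box, and 2, TIMP1 and TIMP4, carried the ETS motif. MMP1, MMP3, MMP12, MMP13 and the rest of the related genes were not searched. These few genes therefore do not show that either motif is particular to the cluster. A motif match is a stretch of letters and does not show binding.

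**Figure D1:**
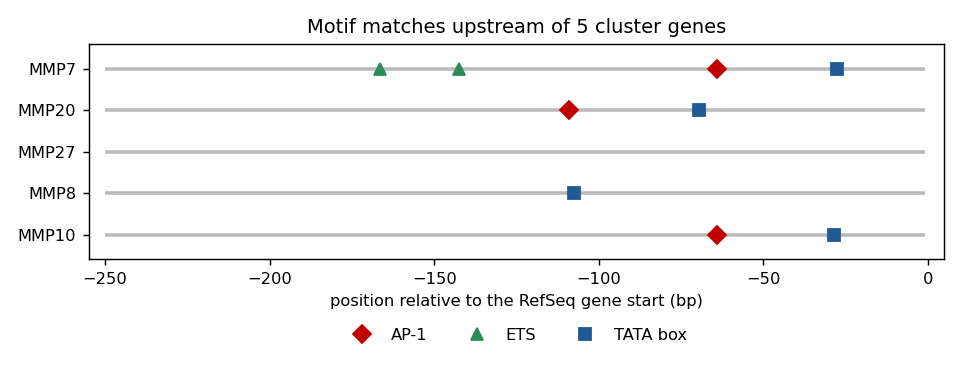
Positions of motif matches in the 250 bases before the RefSeq gene start of 5 cluster genes; the horizontal axis is the position relative to that start in bp, and each marker is the centre of 1 match. The AP-1 markers of MMP7 and MMP10 sit at the same distance from the start, and MMP27 has no marker.

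Fra-1 was listed at 7 positions in the cluster over input, named A to G here in the order of their position. Peak A, at chr11:102434923-102435140, was 218 bp wide and had a pileup of 24, which is the number of ChIP fragments stacked at its summit, at 4.28-fold. Fold is the authors' value, in which 1 is added to the pileup and to the control level before they are divided. Peak B, at chr11:102470022-102470270, had a pileup of 29, 6.47-fold over input. Peak C, at chr11:102470348-102471103, reached a pileup of 107, 22.2-fold over input. Peaks B and C are direct neighbours, with 77 bp between their ends and 399 bp between their summits.

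Peak D stood alone further along, at chr11:102631179-102631424, with a pileup of 28 (6.98-fold). Peak E, at chr11:102721842-102722448, reached a pileup of 84 (15.1-fold). Peak F, at chr11:102753225-102753592, had the lowest pileup of the 7, 21 (5.47-fold). Peak G, at chr11:102757534-102758120, reached a pileup of 46 (9.65-fold). C and E thus stood clear of the rest in pileup, and the other 5 lay between 21 and 46.

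**Figure D2:**
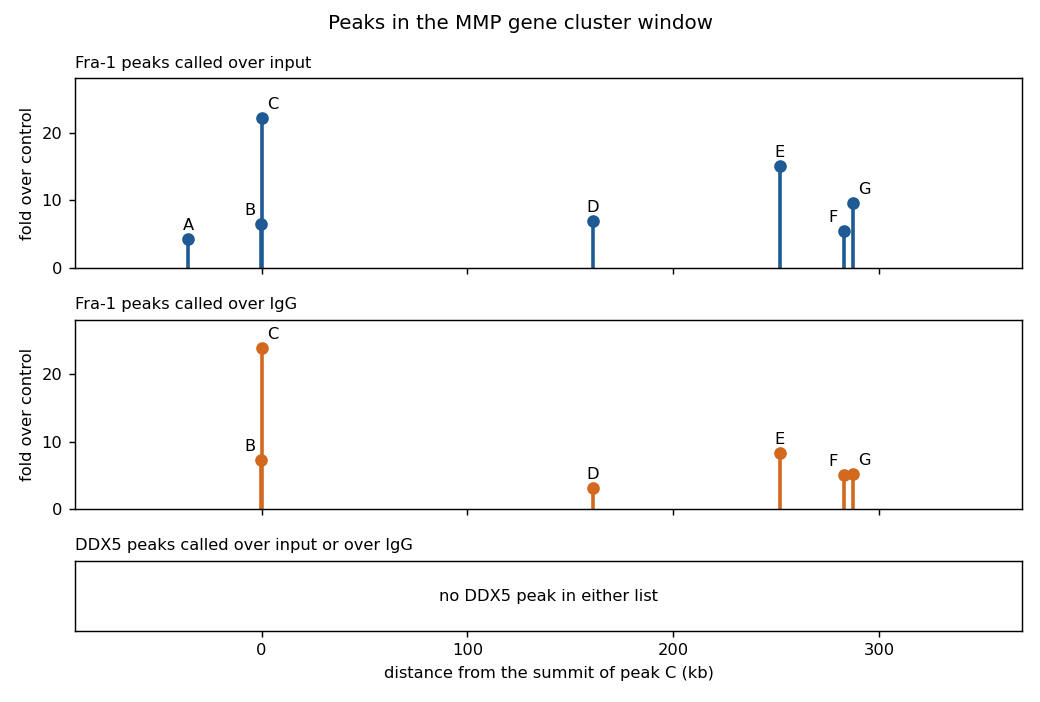
Fold enrichment (vertical axes) of each peak against its distance in kb from the summit of peak C (horizontal axis, running over the whole window), for Fra-1 over input, Fra-1 over IgG and DDX5. The highest markers are C and E with either control, peak A is missing over IgG, and the DDX5 panel is empty.

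The 7 peaks covered 3031 bp, or 0.659% of the window, and C and E made up 1363 bp of that. Peak C had the highest fold, 22.2, which ranked 1057 of 30571 in the whole list, above 96.5% of its peaks, and 31 of 1128 on chromosome 11. Peak E ranked 3171, above 89.6% of the list, and peak G ranked 6921, above 77.3%. Peaks D, B and F, at 6.98-fold, 6.47-fold and 5.47-fold, stood above 65.0%, 61.4% and 50.7% of the list, and peak A at 4.28-fold above 30.8%. So 6 of the 7 had a fold above the list median of 5.37, and the median of the 7 was 6.98.

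Of the 7 peaks, 3 (C, E and G) reached 8-fold over input, which is 42.9% (95% exact binomial interval 9.90% to 81.6%), against 29.5% of the whole list. The interval holds the share of the list, so no difference was detectable with 7 peaks. These 3 were also the widest, with 756 bp for C, 607 bp for E and 587 bp for G, wider than 94.4%, 88.9% and 87.8% of the list. Peak F was 368 bp wide, and peaks A, B and D were 218 bp, 249 bp and 246 bp wide, below the list median of 317 bp.

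**Figure D3:**
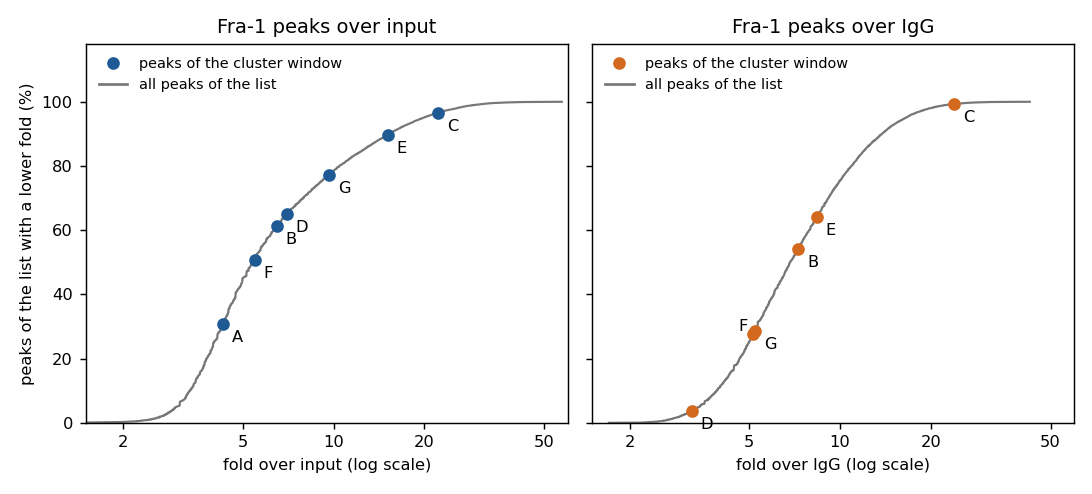
Share of each whole Fra-1 list with a lower fold (vertical axis, %) against fold (horizontal axis, log scale), with the members of the window as points on the grey curve of all peaks. Over input the members run from A at 30.8% to C at 96.5%, and over IgG from D at 3.63% to C at 99.3%.

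IgG as the control kept 6 of the 7 peaks, B to G (85.7%, 42.1% to 99.6%), against 50.5% of the whole Fra-1 list over input. The share depends on fold. Among the list's peaks under 5-fold 14.0% were listed again over IgG, from 5-fold to under 8-fold 60.7% were, and at 8-fold or more 97.6% were. In the window the peak under 5-fold, A, was not listed over IgG, and all 3 peaks from 5-fold to under 8-fold and all 3 at 8-fold or more were. The summits of the 6 moved by 0 to 3 bp between the controls, and those of C, D and E fell on the same base.

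The fold of the 6 peaks did not change alike between the controls. Peak C had a fold of 23.9 over IgG and 22.2 over input, peak B 7.26 over IgG and 6.47 over input, and peak F 5.15 over IgG and 5.47 over input. Their folds over IgG were thus 0.94 to 1.12 times those over input. Peak D had a fold of 3.22 over IgG and 6.98 over input, peak E 8.36 over IgG and 15.1 over input, and peak G 5.21 over IgG and 9.65 over input. These 3 ratios were 0.46, 0.56 and 0.54. Over all 15443 Fra-1 peaks over input that were listed again over IgG the median ratio was 0.80 (interquartile range 0.59 to 1.01), 26.0% were below 0.6 and 37.2% were at 0.9 or more, so ratios of both sizes were common in the list.

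The same folds can be put as control levels for the summits, which were computed from pileup and fold and are no separate measurement. They are the levels that entered the fold, and the width over which each was taken is not known. The IgG level was 7.0 fragments at D, 8.0 at E and 7.0 at G, which is 2.62, 2.99 and 2.62 times the lowest level in that list, 2.67. At B, C and F it was 2.67, 3.0 and 2.80, which is 1.0, 1.12 and 1.05 times that level. The IgG level at D, E and G lay above those of 64.1%, 73.2% and 65.2% of the Fra-1 peaks over IgG. The input level was less spread, at 3.02 fragments in F to 4.84 in A, or 1.0 to 1.60 times the lowest level of the list over input, 3.02. Peak D had an input level of 3.16 and thus only 1.04 times the lowest, while its IgG level was 2.62 times the lowest. Levels under the lowest value cannot be seen in these lists, since the authors' values have a floor there.

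**Figure D4:**
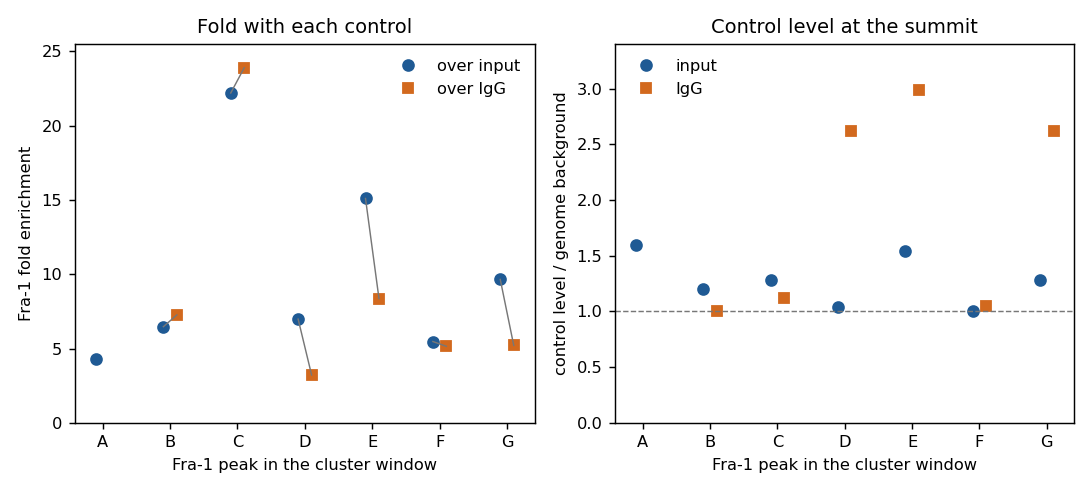
Left, Fra-1 fold (vertical axis) over input and over IgG for each peak of the window. Right, the input and IgG level computed for each summit, divided by the lowest level in its list (dashed line at 1). Peaks D, E and G have folds over IgG of 0.46 to 0.56 times those over input and IgG levels of 2.62 to 2.99, and peaks B, C and F have IgG levels of 1.0 to 1.12.

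With IgG as the control 2 of the 6 peaks, C and E, reached 8-fold (33.3%, 4.33% to 77.7%), against 38.8% of that list. Peak C ranked 103 of 16133 over IgG, and E ranked 5805. Peak D, at 3.22-fold, lay near the lower end of the list and above only 3.63% of its peaks, with a −log10 q of 4.13 against 14.8 over input. The median fold of the 6 over IgG was 6.23, and that of the list was 6.82.

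DDX5 was not listed in the cluster with either control. Of the 7 Fra-1 peaks over input 0 overlapped a DDX5 peak over input (upper limit 41.0%), against 21.8% of the whole Fra-1 list over input, and of the 6 over IgG 0 did (upper limit 45.9%), against 8.68% of that list. By fold over input, the share of the whole list with a DDX5 peak was 26.5% under 5-fold, 20.8% from 5-fold to under 8-fold, 15.3% at 8-fold or more and 32.3% at 20-fold or more. Each of these shares lies under the upper limits, so the 0 does not set the cluster apart from the list. All 7 are Fra-1 sites without a listed DDX5 peak, as were most sites of the list.

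How strong a DDX5 signal could have gone unlisted can be read from the list itself. The input level at peak C, set to the depth of the DDX5 library, was 3.43 fragments. The 1493 DDX5 peaks elsewhere with an input level within 5% of that had pileups of 12 or more, with a median of 18. The Fra-1 pileup at C corresponds to 94.9 at that depth. Only depth was scaled for such Fra-1 values. How well each antibody enriches is unknown, so they give no expected DDX5 pileup. At E the level was 4.12, and the lowest pileup of the 1602 DDX5 peaks at such levels was 14, against a Fra-1 pileup of 74.5 at that depth. At the other 5 sites the lowest listed pileups were 10 to 14, with medians of 15 to 21. The Fra-1 pileups at that depth were 21.3 at A, 25.7 at B, 24.8 at D, 18.6 at F and 40.8 at G. The lowest folds listed at such input levels were 2.84 to 3.10, and a DDX5 signal below that could be present at any of the 7 sites without being listed.

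The nearest DDX5 peaks over input lay outside the cluster, at very different distances on either side. On the side of MMP7 the nearest was at chr11:102323295-102323505, 56.5 kb before the window, with a pileup of 17 (4.06-fold). On the side of MMP13 the nearest was at chr11:106583577-106583795, 3.74 Mb after it, with a pileup of 13 (3.81-fold). The cluster therefore sat inside a stretch of 4.26 Mb without a DDX5 peak, which was the 8th longest on chromosome 11, where the longest was 10.4 Mb. That stretch held 30 Fra-1 peaks over input, 8 of them at 8-fold or more, and 21 Fra-1 peaks over IgG. Over input this is 7.04 per Mb, against 8.41 on chromosome 11 and 10.0 over chromosomes 1 to 22 and X. Over IgG it is 4.93 per Mb, against 4.24 and 5.31. Of the 10739 stretches between neighbouring DDX5 peaks on chromosomes 1 to 22 and X, 78 (0.726%) were of that length or longer, and being long they took up 18.0% of the span.

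The density of Fra-1 peaks in the cluster lay between those of its flanks. The window held 15.2 Fra-1 peaks over input per Mb (exact Poisson interval 6.12 to 31.4), against 8.41 on chromosome 11 and 10.0 over chromosomes 1 to 22 and X. At the density of those chromosomes 4.61 peaks would fall in a window of this size, and the interval of the 7 found, 2.81 to 14.4, holds that number. Over IgG the density was 13.0 per Mb (4.79 to 28.4), against 4.24 on chromosome 11, which is below that interval, and 5.31 over all those chromosomes, which is inside it. For DDX5 over input the window had 0 peaks (upper limit 8.02 per Mb). Over the chromosomes the density was 3.55 per Mb, at which 1.63 peaks would fall in the window, so a count of 0 is within counting error. The Poisson intervals take peaks to fall independently, but 47.5% of Fra-1 peaks over input had another summit within 5 kb. For clustered peaks the intervals are too narrow. The density of 4.24 on chromosome 11, just below the interval over IgG, is therefore not shown to differ from that of the window.

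Flanks of the same length on either side held different numbers of Fra-1 peaks. The flank before the window, beyond MMP7, held 15 Fra-1 peaks over input, 8 over IgG and 3 DDX5 peaks over input. The flank after it, beyond MMP13, held 3, 1 and 0. Of the Fra-1 counts over input, 15 lies above the interval of the window's count of 7 and 3 lies inside it. Over IgG 8 lies inside the interval of the window's 6 (2.20 to 13.1) and 1 below it. The flank counts are small and carry counting error of their own, which this comparison leaves out. It therefore does not show that the window differs from a flank. At 8-fold or more over input the window held 3 Fra-1 peaks, the flank before it 5 and the flank after it 1. The Fra-1 peaks over input just outside the window were at chr11:102323672-102323923, 56.1 kb before it with a fold of 4.72, and at chr11:102867028-102867289, 27.0 kb after it with a fold of 8.79, and the second was also listed over IgG, at 8.41-fold. The Fra-1 peak before the window lay next to the nearest DDX5 peak on that side, at chr11:102323295-102323505, without overlapping it.

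**Figure D5:**
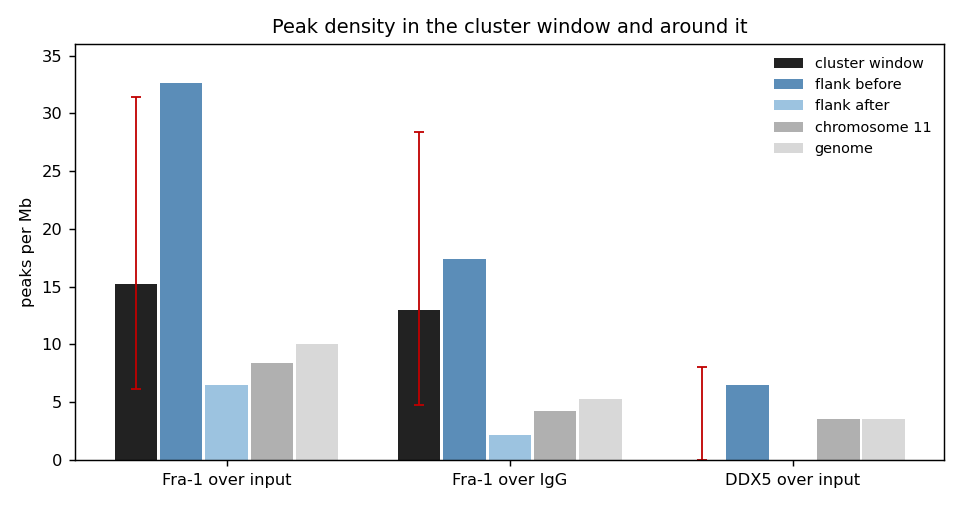
Peaks per Mb (vertical axis) in the cluster window, in the flank of equal length on either side, on chromosome 11 and over chromosomes 1 to 22 and X, for 3 lists; the red bars are exact Poisson intervals of the window count. For Fra-1 over input the window has 15.2 peaks per Mb, between 32.6 in the flank before it and 6.52 in the flank after it, and the DDX5 bar of the window is at 0.

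Along the cluster the Fra-1 peaks formed 2 close pairs and 3 single sites. The pair B and C had summits 399 bp apart, and 3.72% of all Fra-1 peaks over input had another summit within 400 bp. The pair F and G had summits 4.35 kb apart, and 47.5% of the list had another summit within 5 kb. Both members of each pair were listed with both controls, and in each the second had the higher fold over input, C at 22.2-fold beside B at 6.47-fold and G at 9.65-fold beside F at 5.47-fold. Over IgG C stood at 23.9-fold beside B at 7.26-fold, whereas G at 5.21-fold and F at 5.15-fold were close. Within the second pair the IgG level was 7.0 at G and 2.80 at F, beside a list median of 5.2.

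Long stretches of the cluster held no peak of any list. Between C and D 160.1 kb were free of peaks, between D and E 90.4 kb, and from the start of the window to A 54.9 kb. The last 81.9 kb of the window, towards its MMP13 end, were free as well. On chromosome 11 the median distance between neighbouring Fra-1 peaks over input was 19.5 kb, and 15.4% of the 1127 distances were at least as long as that between C and D. Of the 7 peaks 4, D to G, lay in the part of the window after that longest stretch, and they included E and G but not C.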

How the data were processed

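Peaks of 1 ChIP library against 1 control library had been called by the authors, with nothing pooled. Per the submitters' processing notes, CASAVA 1.8, Bowtie 0.12.9, HOMER and hg19 were used, with no roles given; the peak caller is not given in the sources used here. Per the file headers, the deposited signal is the pileup at the summit and the deposited fold enrichment is a ratio. Pileups under 50, the range checked, are whole numbers over input and multiples of 0.884 (Fra-1) and 0.998 (DDX5) over IgG (tolerance 0.02), so the deposited signal had been scaled to the IgG library. The deposited −log10 values stand in 2 columns with spreadsheet errors as headers; the first equals the Poisson −log10 p of pileup and control level (median difference 6.22e-06 for Fra-1 over input), and the second, lower, was taken as −log10 q.

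The control level was computed as pileup plus 1 over fold, minus 1. DDX5-depth values were scaled by the ratio of the lowest control levels in both lists over input. Spans end at the last listed peak of a chromosome. Shares have 95% Clopper-Pearson intervals. The 9 genes, the window, the motifs and the alternatives were chosen with earlier results of these data known. All 7 peaks are named. The overlap and motif code was tested on simulated data. Positions relative to genes and peaks at related MMP and TIMP genes need an hg19 annotation and were not analysed here; the search of those related genes' promoters was added after the data were seen, as were the limits on DDX5, the peak-free stretches and the fold classes. Tools were Python 3.11.15, scipy 1.17.1, pandas 2.3.3, matplotlib 3.10.9 and numpy 2.4.6.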

Additional observations from a re-analysis of the deposited data

How the results depend on the processing

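Of 24 alternatives, 7 could only give 0, since no DDX5 peak lay in the window or near a Fra-1 peak of it, and say nothing about stability. In 14 of the other 17 a share, median or ratio kept inside its main interval (for the median, the range of the 7 folds), or a count changed by at most 1.5 times. The count of 7 Fra-1 peaks became 3 at 8-fold or more, and the share listed again over IgG, 85.7%, became 100% among those 3. That 100% has an interval of 29.2% to 100%, which overlaps the main interval of 42.1% to 99.6%. Any subset with all its peaks listed again would pass that upper limit. The share at 8-fold or more, 42.9%, became 85.7% at 5-fold or more, against 54.9% of the list, and 28.6% at 10-fold or more, against 21.5% of the list. Higher thresholds lower a count, and lower ones raise a share, by construction. The count was 6 over IgG, 5 at or above the list's median −log10 q, 7 with the summit inside the window and 9 with the window widened by 50 kb on each side, an alternative added after the data were seen. The DDX5 count was 0 in the IgG list and 0 with the widened window. In the IgG list only 0.00925 DDX5 peaks would fall in the window at the genome density, so that 0 says little about stability. The median fold, 6.98, was 6.23 over IgG and 8.31 among peaks listed again. The 8.31 comes from the same folds as the main median and could not leave their range. The 14 thus include alternatives that could hardly have differed. The ratio of the Fra-1 density over input to the genome, 1.52 (0.61 to 3.13), was 1.81 against chromosome 11, 2.19 at 8-fold or more and 0.778 against both flanks, so its side of 1 depends on the span compared. No paired analysis was possible because each antibody has 1 library and the result comes from no test. With 7 peaks, the intervals are wide, and a share of DDX5 overlap of up to 41.0% could not have been told from 0.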
